A study of Penicillium oxalicum with 6 samples.

Results

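The 6 genes described here, POX00968, POX03062, POX03641, POX06835, POX07963 and POX08882, make up a list of beta-glucosidase genes of the filamentous fungus Penicillium oxalicum, and were picked by identifier from the 9834 genes in each expression table. RNA sequencing of mycelium compared MuPOX05503, the strain labelled as a POX05503 mutant, with Ku70, the strain labelled as a Ku70 mutant, in 3 libraries each after 24 h in liquid medium with 1% Avicel, a microcrystalline cellulose. The series asks what deletion of POX05503 does to gene expression, with a protein kinase and the regulation of cellulase and xylanase genes as its subject. Ku70 is a protein of DNA end joining, and its loss makes targeted gene deletion in fungi more efficient. For every library the protocol gives MuKu70 as the source of the spores, while no label states if MuPOX05503 lacks Ku70 too, whether each strain is 1 clone, or whether the libraries of a strain came from separate cultures. The p-values therefore reflect no more than the scatter among these 6 libraries, part or all of which may be technical.

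Beta-glucosidases release glucose from cellobiose and other short cello-oligosaccharides, the products that cellobiohydrolases and endoglucanases free from cellulose. Cellobiose inhibits cellobiohydrolases, so removing it keeps cellulose breakdown going. Fungi usually carry several beta-glucosidase genes, from more than 1 family of glycoside hydrolases, some secreted and some kept inside the cell. In Trichoderma reesei, transfer reactions of such enzymes also form sophorose, a sugar that induces cellulase genes.

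The name beta-glucosidase rests on publications about this strain, recalled without the files, which pair no identifier with a product. In the RefSeq table of assembly ASM172317v3, 0 of the 9834 identifiers were found, so which enzyme family each gene belongs to, and which products are secreted, was not checked. The only property of the genes that the tables bear on is the length used for scaling, which is not the length of the product. From the count, the FPKM (fragments per gene, scaled to gene length and library depth) and the library total, the implied lengths were 2716 nt for POX07963, 2684 nt for POX00968, 2647 nt for POX06835, 2582 nt for POX03641, 1890 nt for POX08882 and 1485 nt for POX03062. The median over the 7323 genes with a mean count of at least 100 was 1358 nt. POX07963, the gene singled out below for its direction, was thus close in implied length to POX00968, POX06835 and POX03641.

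Library totals were 13653015.5 to 13843878.88 expected counts in MuPOX05503 and 13936580.31 to 14263916.17 in Ku70. POX05503 itself was at 0 counts in each of the 3 MuPOX05503 libraries, against 470, 529 and 539 counts in the Ku70 libraries, which put it at least 499.8-fold lower by library totals (3 counts in all taken as the floor for the mutant). None of the 6 beta-glucosidase list genes was at 0 in any library, and the counts of all 6 were whole within 0.005 in every library, so these counts show no sign of reads shared out between near-identical copies. All 6 were among the 8801 genes tested, those with at least 1 FPKM in at least 3 libraries.

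On cellulose, 5 of the 6 genes had less RNA in the mutant and 1 had more. POX00968, POX03641, POX06835, POX03062 and POX08882 fell, by 2.41-fold to 6.999-fold, and POX07963 rose 4.40-fold. All 6 passed the test (edgeR quasi-likelihood test, Benjamini-Hochberg adjusted p under 0.05 over all tested genes) with at least a 2-fold change, although POX08882 was under 2-fold with limma on log2(FPKM + 1) (log2 fold change -0.87). Across the tested genes 64.4% passed, 32.6% as lower and 31.9% as higher in MuPOX05503 (a balance that moves with the scaling: 3341 genes higher and 2442 lower by library totals); with at least a 2-fold change these shares were 13.9% and 11.5%. The FPKM ranges of the strains did not overlap for any of the 6 genes, and this held for 71.4% of all tested genes, 29.7% with MuPOX05503 lower and 41.6% with MuPOX05503 higher. The median log2 fold change was -1.79 over the 6 genes and 0.01 over all tested genes. The directions were known when the list was drawn up, so the contrast of POX07963 with the other 5 is a description. In RNA from whole mycelium, fewer cells that transcribe a gene and less RNA per cell cannot be told apart.

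**Figure D1:**
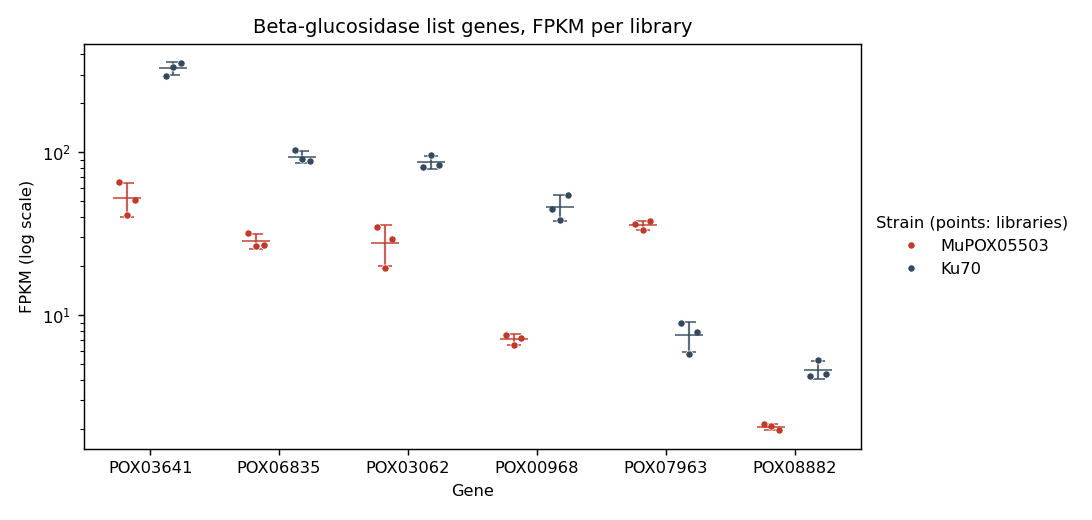
FPKM of the 6 beta-glucosidase list genes on a log scale, with MuPOX05503 left of Ku70 for each gene. Points are libraries and bars are the mean ± SD of 3 libraries. The MuPOX05503 points of POX07963 lie at 33.2 to 37.6 FPKM, above its Ku70 points at 5.76 to 8.90, while the MuPOX05503 points of the other 5 genes lie below those of Ku70.

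POX03641 was the most abundant of the 6 in both strains. It had 65.4, 41.1 and 50.9 FPKM in the MuPOX05503 libraries, against 295.2, 335.8 and 351.1 FPKM in the Ku70 libraries. Every mutant library lay below every Ku70 library, and the lowest Ku70 value was 4.51 times the highest mutant value. The fall was 6.74-fold (95% interval 5.23 to 8.68; log2 fold change -2.75, SE 0.16, edgeR adjusted p = 3.92e-07). By its mean FPKM the gene ranked 2836th of 9834 in MuPOX05503 and 497th in Ku70, and 2.99% of the tested genes had a lower log2 fold change.

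POX00968 fell about as far as POX03641, from a lower level. Its values were 7.56, 6.55 and 7.19 FPKM in MuPOX05503, against 45.1, 38.4 and 54.7 FPKM in Ku70. The 3 mutant libraries were close together, whereas the Ku70 libraries spread over a 1.42-fold range. The gene was 6.999-fold lower (95% interval 5.67 to 8.64; log2 fold change -2.81, SE 0.14, edgeR adjusted p = 1.03e-07). Its rank by mean FPKM was 7193 in MuPOX05503 and 2954 in Ku70.

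POX06835 and POX03062 were at similar levels and fell by similar amounts. POX06835 had 31.8, 26.5 and 27.1 FPKM in MuPOX05503, against 103.1, 90.9 and 87.9 FPKM in Ku70, a 3.57-fold fall (95% interval 2.99 to 4.25; log2 fold change -1.83, SE 0.11, edgeR adjusted p = 5.14e-07). POX03062 had 34.9, 19.4 and 29.5 FPKM in MuPOX05503, against 81.5, 96.6 and 83.3 FPKM in Ku70, a 3.37-fold fall (95% interval 2.55 to 4.46; log2 fold change -1.75, SE 0.18, edgeR adjusted p = 1.91e-05). The strains did not overlap for either gene. POX03062 was the more scattered of the pair in the mutant, with a coefficient of variation of 28.2% against 10.2% for POX06835, and in Ku70 the 2 genes varied alike, at 9.45% and 8.57%.

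POX08882 was the least abundant of the 6 and fell least. It had 2.14, 2.09 and 1.96 FPKM in MuPOX05503, against 4.24, 5.30 and 4.33 FPKM in Ku70. These rest on 56, 54 and 51 counts in the mutant libraries and on 114, 141 and 114 counts in Ku70. Counting error alone spans 38.0 to 67.1 for the lowest mutant count and 94.0 to 136.9 for the lowest Ku70 count (exact 95% Poisson intervals). These intervals cover counting error only. The reads carry no molecular identifiers that would tell copies of 1 molecule apart, so the intervals may be too narrow. The fall was 2.41-fold (95% interval 1.91 to 3.05; log2 fold change -1.27, SE 0.15, edgeR adjusted p = 5.15e-05). Even here no mutant library reached the lowest Ku70 library, which was 1.98 times the highest mutant value.

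POX07963 went against the other members. Its values were 36.1, 33.2 and 37.6 FPKM in MuPOX05503, against 8.90, 5.76 and 7.85 FPKM in Ku70, resting on 1360, 1231 and 1403 counts in the mutant and 344, 220 and 297 counts in Ku70. The lowest mutant library was 3.73 times the highest Ku70 library. The rise was 4.40-fold (95% interval 3.48 to 5.55; log2 fold change 2.14, SE 0.15, edgeR adjusted p = 1.26e-06). Of the 8801 tested genes, 354 (4.02%) had a higher log2 fold change. The gene ranked 3802nd of 9834 by mean FPKM in MuPOX05503 and 7117th in Ku70. It was tightly grouped in the mutant, with a coefficient of variation of 6.34%, and more scattered in Ku70, at 21.3%, where replicate 2 was the low library.

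**Figure D2:**
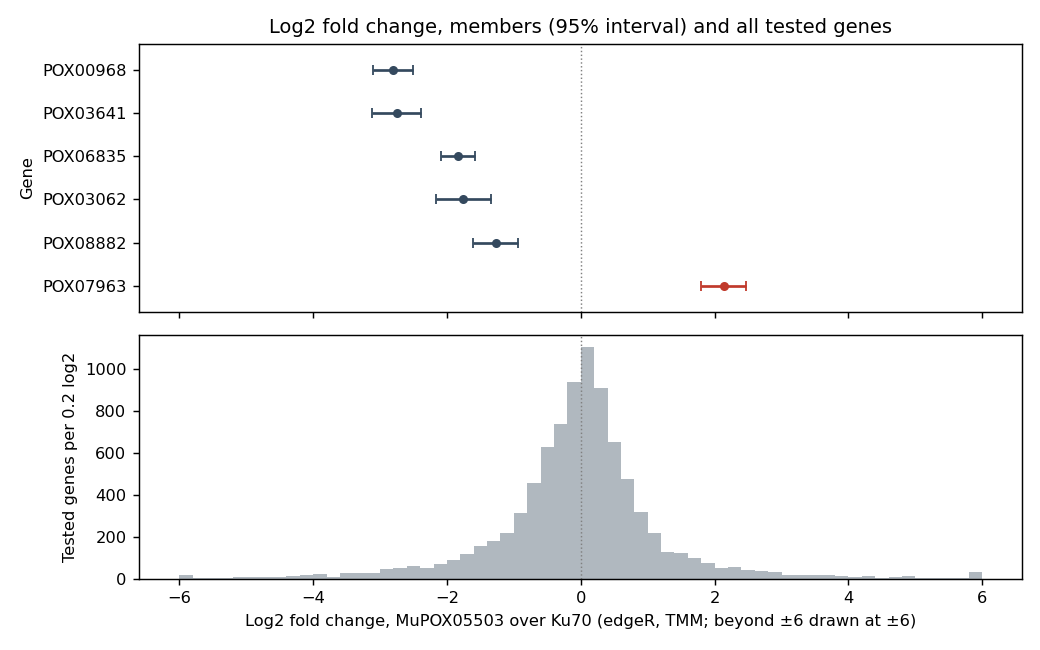
Log2 fold changes of MuPOX05503 over Ku70 from edgeR. The upper panel gives the 6 genes with 95% intervals, and the lower panel the number of the 8801 tested genes per step of 0.2. The interval of POX07963 runs from 1.80 to 2.47, and those of the other 5 genes lie between -3.12 and -0.93.

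The falls came at different sizes. The intervals of POX00968 and POX03641 (log2 fold change -3.12 to -2.39) overlapped each other. The interval of POX03062 took in that of POX06835, and both overlapped that of POX08882. The interval of POX00968 (log2 fold change -3.11 to -2.50) lay apart from those of POX06835 (-2.09 to -1.58), POX03062 (-2.16 to -1.35) and POX08882 (-1.61 to -0.93). Ratios of FPKM taken within each library need no scaling between libraries. They show the same pairs, POX00968 with POX03641 and POX03062 with POX06835. The ratios of POX08882 to POX06835 and to POX03062 did not overlap between strains, although the intervals did. POX00968 stood at 0.116, 0.159 and 0.141 of POX03641 in MuPOX05503, against 0.153, 0.114 and 0.156 in Ku70, so the ranges overlapped. POX03062 stood at 1.097, 0.730 and 1.09 of POX06835 in MuPOX05503, against 0.791, 1.06 and 0.947 in Ku70, again with overlap.

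These were the 2 overlapping ratios among the 15 pairs of members; in the other 13 the strains did not overlap. For ratios of a member to a tested gene outside the list, 93.7% did not overlap between strains, so 13 of 15 is near that background. Each of those ratios holds a member, and every member differed between strains by itself. The share therefore does not stand for pairs of tested genes in general. The grouping was noticed after the values were seen and was not tested. POX03641 stood at 2.06, 1.55 and 1.87 times POX06835 in MuPOX05503, against 2.86, 3.69 and 3.99 times in Ku70. The most abundant gene thus stood closer to the next ones in the mutant. Ratios with POX07963 shifted further. POX07963 stood at 0.552, 0.807 and 0.740 of POX03641 in MuPOX05503, against 0.0302, 0.0172 and 0.0224 in Ku70. Over POX00968 it averaged 5.03 in MuPOX05503 and 0.164 in Ku70, and over POX06835 it stood at 1.14, 1.25 and 1.39 in MuPOX05503, against 0.0863, 0.0634 and 0.0893 in Ku70.

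**Figure D3:**
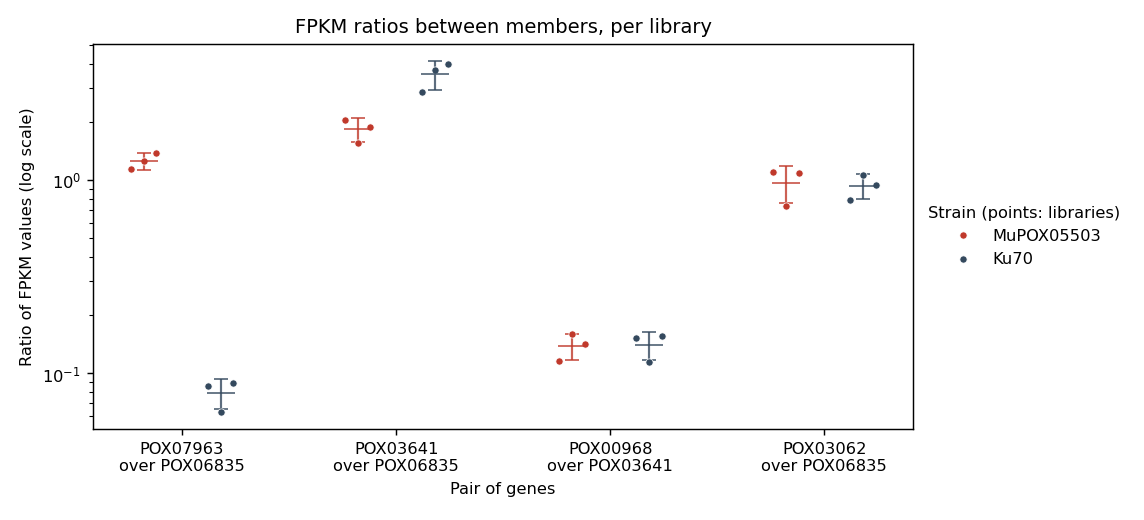
Ratios of FPKM values between members of the list, on a log scale, with MuPOX05503 left of Ku70 for each pair. Points are libraries and bars are the mean ± SD of 3 libraries. POX07963 over POX06835 averages 1.26 in MuPOX05503 and 0.0797 in Ku70, while POX00968 over POX03641 and POX03062 over POX06835 overlap between strains.

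The order of the genes by level changed through POX07963 alone. In MuPOX05503 the order by mean FPKM was POX03641 at 52.5 ± 12.2, POX07963 at 35.7 ± 2.26, POX06835 at 28.5 ± 2.90, POX03062 at 27.9 ± 7.88, POX00968 at 7.10 ± 0.511 and POX08882 at 2.06 ± 0.0929 (SD, n = 3). In Ku70 it was POX03641 at 327.4 ± 28.9, POX06835 at 93.97 ± 8.05, POX03062 at 87.1 ± 8.23, POX00968 at 46.1 ± 8.19, POX07963 at 7.50 ± 1.60 and POX08882 at 4.62 ± 0.588 (SD, n = 3). In both strains the ranges of POX06835 and POX03062 overlapped over the 3 libraries, and those of all other neighbours in the order did not. With POX07963 set aside, the other 5 genes kept 1 order in both strains. By mean FPKM, POX07963 stood 2nd in the mutant and 5th in Ku70. In the mutant its range (33.2 to 37.6 FPKM) overlapped that of POX03062 (19.4 to 34.9 FPKM), though not that of POX06835.

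The list as a whole was lower in the mutant, and its make-up differed. Summed over the 6 genes, the level was 178.0, 128.8 and 154.2 FPKM in MuPOX05503, against 538.0, 572.7 and 589.2 FPKM in Ku70, so the Ku70 mean was 3.69 times that of the mutant. Without POX07963 the sums were 118.0 ± 23.1 FPKM in MuPOX05503 and 559.2 ± 26.99 FPKM in Ku70 (SD, n = 3), a 4.74-fold difference. The 6 genes took 0.0372 ± 0.00554% of all counts in MuPOX05503 and 0.137 ± 0.0066% in Ku70 (SD, n = 3).

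POX07963 made up 20.3%, 25.8% and 24.4% of the summed FPKM in the MuPOX05503 libraries, against 1.65%, 1.01% and 1.33% in the Ku70 libraries. The share of POX03641 was 33.9 ± 2.55% in MuPOX05503 and 57.7 ± 2.50% in Ku70 (SD, n = 3). POX00968 held 4.66 ± 0.418% in MuPOX05503 and 8.12 ± 1.31% in Ku70. The shares of POX06835 were 17.6% to 20.6% in MuPOX05503 and 14.9% to 19.2% in Ku70, and overlapped between strains. Those of POX03062 were 15.0% to 19.6% in MuPOX05503 and 14.1% to 16.9% in Ku70, and overlapped too. POX08882 held 1.37 ± 0.225% in MuPOX05503 and 0.816 ± 0.0983% in Ku70, although its own level fell, since the sum fell further.

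**Figure D4:**
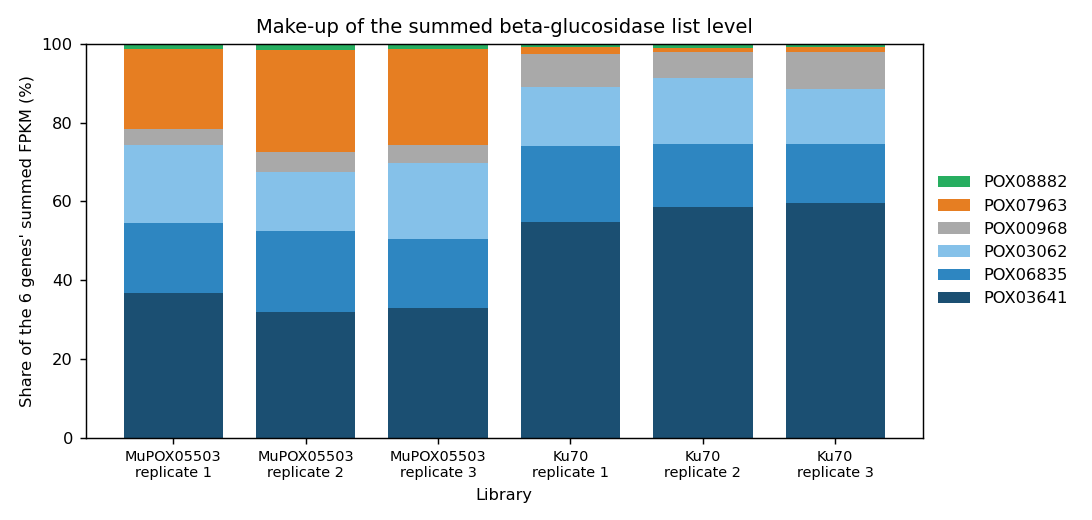
Share of each gene in the summed FPKM of the 6 genes, per library, with the MuPOX05503 libraries left of the Ku70 libraries. The orange part, POX07963, takes 20.3% to 25.8% in MuPOX05503 and 1.01% to 1.65% in Ku70, and the dark part at the base, POX03641, takes 31.9% to 36.8% in MuPOX05503 and 54.9% to 59.6% in Ku70.

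Within the mutant, the libraries ranked alike for several members. MuPOX05503 replicate 2 was the lowest library for POX00968, POX03062, POX03641, POX06835 and POX07963, at 0.694 of the strain mean for POX03062, 0.784 for POX03641 and 0.923 to 0.931 for the other 3. Normalised with TMM factors (trimmed mean of M-values), it stood at 0.701 for POX03062 and 0.791 for POX03641. Without this library POX03062 still fell, with a log2 fold change of -1.54, as did POX03641, at -2.60. MuPOX05503 replicate 2 was also lowest for the summed FPKM of the cellulase list genes described below. That sum was 1709 FPKM there, against 2434 in MuPOX05503 replicate 1 and 1953 in replicate 3. How many of all tested genes were lowest in replicate 2 was not counted, so the low values are not read as particular to the list. In Ku70 no library was lowest for most members: replicate 2 was low for POX00968 and POX07963 and high for POX03062 and POX08882. The coefficient of variation of POX03062 in the mutant exceeded that of 91.7% of tested genes, and that of POX07963 in Ku70 exceeded that of 87.6%.

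Other enzymes of cellulose and xylan breakdown were set beside the list, namely 6 identifiers of a cellulase list and 5 of a xylanase list. They are those that an earlier account of these data named, mostly for their abundance or their change, so their counts are a description only. All 6 cellulase list genes fell, with log2 fold changes from -3.93 to -2.27 and a median of -3.08, against -1.79 over the 6 beta-glucosidase list genes. Of the 5 xylanase list genes, 4 fell and 1 did not pass (log2 fold change -0.47, edgeR adjusted p = 0.0594), and their median was -2.97. The 6 beta-glucosidase list genes, POX07963 among them, had been left out of both lists beforehand. Among the genes that remained, none rose. Over all tested genes 32.6% passed as lower and 31.9% as higher. Because the genes were named partly for their change, the lack of a riser among them does not mark POX07963 as exceptional.

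The summed level of the beta-glucosidase list was also set over that of the cellulase list genes, none of which it contains, and the ratio was higher in the mutant. Some of those genes had been named for their abundance or their fall, and a choice by fall raises such a ratio. Summed FPKM of the 6 beta-glucosidase list genes came to 7.31%, 7.54% and 7.90% of that of the 6 cellulase list genes in MuPOX05503, against 3.33%, 3.64% and 4.17% in Ku70. Without POX07963 the values were 5.80 ± 0.188% in MuPOX05503 and 3.66 ± 0.425% in Ku70 (SD, n = 3). The strains did not overlap either way. Such a lack of overlap was common, at 93.7% of the FPKM ratios of a single member to a tested gene outside the list. The summed level of the cellulase list genes was 2032 ± 369 FPKM in MuPOX05503 and 15343 ± 1074 FPKM in Ku70 (SD, n = 3), so both terms of the ratio were lower in the mutant.

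The gene closest to POX07963 in level and pattern, by the root-mean-square difference in log2(FPKM + 1) over the 6 libraries, was POX06426, at 0.14. It had 31.9, 35.3 and 36.1 FPKM in MuPOX05503, against 8.61, 7.18 and 8.15 FPKM in Ku70 (log2 fold change 1.999, SE 0.11, edgeR adjusted p = 2.18e-07). Outside the list, 71 tested genes lay within 0.5 of POX07963 on this measure. The gene closest to POX03641 was POX07864, at 0.20, with 74.8, 45.7 and 58.6 FPKM in MuPOX05503, against 357.4, 400.9 and 369.1 FPKM in Ku70 (log2 fold change -2.77, SE 0.17, edgeR adjusted p = 4.24e-07). Outside the list, 19 tested genes lay within 0.5 of POX03641. Both genes were picked for likeness over these same 6 libraries, so their values and tests restate that choice. The files name no product for either gene.

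Genes with identifier numbers next to a member moved in both directions, and no source used here says if numbers run along the chromosomes. Of the 24 genes within 2 numbers of a member, 21 were tested, of which 11 were higher, 5 were lower and 5 did not pass, where 31.9% of all tested genes were higher and 32.6% lower. Of the 16 that passed, 3 moved in the direction of their member and 13 in the other, and with so few genes no more is read from this. The 3 were the genes directly after POX03062 and 2 numbers after it (log2 fold changes -1.22 and -0.95; adjusted p = 8.85e-05 and 1.17e-05 in edgeR) and the gene 2 numbers before POX08882 (log2 fold change -2.18; adjusted p = 8.15e-07 in edgeR). Of the 4 around POX07963, those directly before and after it fell (by -1.54 and -0.37 on the log2 scale; adjusted p = 1.47e-06 and 0.018 in edgeR), the one 2 numbers after did not pass, and the one 2 numbers before was not tested. The gene directly before POX08882 rose, at 108.5 FPKM in MuPOX05503 and 7.06 FPKM in Ku70 (log2 fold change 3.83, edgeR adjusted p = 4.83e-09), while POX08882 itself fell. Around POX03641 the 2 tested genes rose, by 0.73 and 0.38 on the log2 scale (adjusted p = 0.00294 and 0.0134 in edgeR).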

How the data were processed

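The authors deposited 1 table per library with an expected count, an estimated read count per gene, and an FPKM, scaled to gene length and depth, per the file headers. The submitters' processing notes list RSEM 1.2.12, Bowtie2 2.1.0, BWA 0.7.10-r789 and DESeq2 without saying what each did. The build, the gene models and the strand setting were not given in the sources used here; where genes overlap antisense to each other, their reads may be mixed.

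Rounded expected counts of the 8801 genes that reached an FPKM of 1 in 3 or more libraries were fitted in R 4.3.3 by edgeR 4.0.16 (TMM factors, quasi-likelihood test, strain as the only term). P-values were adjusted over all of them by Benjamini-Hochberg, with a threshold of 0.05. Fold changes are MuPOX05503 over Ku70 with TMM scaling, so they are close to FPKM ratios but not equal to them. Alternatives used limma 3.58.1 on log2(FPKM + 1) and log2(FPKM + 0.1), DESeq2 1.42.0, other scalings, no filter, a replicate block and leaving out each library. Implied length is the count divided by the FPKM and by the library total, scaled to nucleotides.

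Named genes were the members, POX05503 and, for POX07963 and for the most abundant member, the tested gene nearest in profile. Members, lists and tests were chosen with earlier results of these data known.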

Additional observations from a re-analysis of the deposited data

How the results depend on the processing

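Of 78 fold changes of the 6 genes under 13 alternatives, 78 kept their direction and their side of the threshold. Leaving out each library gave log2 fold changes of 1.97 to 2.30 for POX07963, -2.92 to -2.68 for POX00968, -2.92 to -2.60 for POX03641, -1.90 to -1.75 for POX06835, -1.93 to -1.54 for POX03062 and -1.33 to -1.16 for POX08882. POX08882, the gene with the fewest counts, was at -0.87 with limma on log2(FPKM + 1), where the pseudocount shrinks low values; it still passed, but at under 2-fold. Library totals in place of TMM factors put the median of all genes at 0.124 in place of 0.0124 and the calls at 3341 higher and 2442 lower, in place of 2804 and 2868 (3271 and 2412 with limma on log2(FPKM + 1)); relative to that median POX07963 was at 2.13 and POX00968 at -2.82. The median over the other cellulase and xylanase list genes ranged from -3.15 to -2.85 when libraries were left out. With the libraries' title letters as a replicate block, the test gave log2 fold changes of 2.15 for POX07963 (edgeR adjusted p = 9.96e-07) and -1.27 for POX08882 (adjusted p = 1.6e-04), and 5529 genes passed over the whole table, against 5672 without it. Libraries of the same letter did not deviate together (r = 0.0042, -0.034 and -0.015 over genes), so the letters were not taken to pair the libraries; none of the 3 mutant libraries correlated best with the Ku70 library of its own letter. Summed as shares of all counts in place of FPKM, the level in the mutant was 0.271 of that in Ku70 on either scale.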
